A study of Mus musculus with 4 samples.

Results

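The Satb1 domain comprised every ATAC-seq peak with its midpoint inside the Satb1 gene (chr17:51736187-51833290, mm10) or within 500 kb of either end, outside any other protein-coding gene. It held 90 of the 182009 peaks in the 4 deposited lists, and these merged into 53 of 107621 regions. ATAC-seq finds open chromatin from the places where a transposase can insert sequencing adapters. All samples came from the thymus of C57BL/6J animals, wild-type and between 5 and 7 weeks old, whose cells were sorted and used at once. One group was CD4+CD8+ double-positive (DP) thymocytes, with lists DP 1 and DP 2. The other was CD4-CD8- double-negative (DN) thymocytes, the earlier stage, gated as CD25+CD44-/+, with lists DN 1 and DN 2. Satb1 was selected on these same lists, because its DP peak numbers were known to exceed its DN peak numbers. The DP and DN values below are therefore a description, without a test.

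SATB1 is a nuclear protein that binds AT-rich DNA and ties distant stretches of chromatin into loops. It is abundant in thymocytes, and mice that lack it make few mature T cells. Genes of this kind are often controlled by enhancers spread over a wide neighbouring stretch with few other genes. Satb1 fits that layout in the annotation: no other protein-coding gene touched the domain of 1097104 bp. The nearest coding neighbours were Tbc1d5, 555.0 kb beyond the 3′ end of Satb1, and the potassium channel gene Kcnh8, 769.4 kb beyond its 5′ end. Inside the domain lay 5 lncRNA genes and 2 pseudogenes. Satb1 is read from the minus strand, so upstream means higher coordinates, and distances below are counted from the 5′ end of the gene at position 51833290.

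The lists held 39709 and 70376 peaks for DP 1 and DP 2, and 38801 and 33123 peaks for DN 1 and DN 2. Without read counts in them the depth is unknown, and where a list has no peak the site may be closed or have few reads. In such bulk lists, a site open in few cells and a site weakly open in many cells cannot be told apart either. The labels do not say that the 2 samples per group are from different animals, so their spread may be technical. Peaks at 3 genes of DP cells (Cd4, Cd8a and Cd8b1, within 10 kb) summed to 23 and 21 in DP 1 and DP 2 and to 1 in each of DN 1 and DN 2. Cd8a, which encodes a chain of the CD8 coreceptor, had 0 peaks in both DN lists. Genes of CD25+ DN cells (Il2ra, Ptcra, Notch1 and Hes1) summed to 19 peaks in each DP list, and to 14 and 2 in DN 1 and DN 2. These genes thus did not mark the DN lists, although the DN cells were gated on CD25, and DN 2 held few peaks at them. The myeloid genes Lyz2 and Csf1r and the erythroid gene Gata1 had 0 peaks in all 4 lists. The B cell genes Pax5 and Ebf1 summed to 9 and 12 in the DP lists and to 9 and 4 in the DN lists. The part of these differences between lists in the Satb1 result was not tested.

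Satb1 has several annotated start sites, and RefSeq (GRCm38.p6, the same assembly as mm10) gives 5 promoter windows for it, each from 250 bases before a start site to 50 after it. Shown here are the 3 windows that at least 1 list covered in full. Start site 1 lies at the 5′ end of the gene, start site 2 lies 0.643 kb inside it and start site 3 lies 6.702 kb inside it. Capitals mark matches to the motifs searched, in either orientation.
Start site 1, chr17:51833241-51833540, minus strand: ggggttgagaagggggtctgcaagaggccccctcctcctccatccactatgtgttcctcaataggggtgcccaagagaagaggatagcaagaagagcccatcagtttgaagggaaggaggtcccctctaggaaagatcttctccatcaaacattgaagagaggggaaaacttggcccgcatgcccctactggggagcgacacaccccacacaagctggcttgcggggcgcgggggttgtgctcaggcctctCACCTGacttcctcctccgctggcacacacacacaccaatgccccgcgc
Start site 2, chr17:51832598-51832897, minus strand: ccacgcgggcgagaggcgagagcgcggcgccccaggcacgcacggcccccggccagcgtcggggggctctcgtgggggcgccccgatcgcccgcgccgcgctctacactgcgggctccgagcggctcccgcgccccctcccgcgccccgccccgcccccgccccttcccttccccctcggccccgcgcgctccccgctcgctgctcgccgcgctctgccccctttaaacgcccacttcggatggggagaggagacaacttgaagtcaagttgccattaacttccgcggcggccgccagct
Start site 3, chr17:51826539-51826838, minus strand: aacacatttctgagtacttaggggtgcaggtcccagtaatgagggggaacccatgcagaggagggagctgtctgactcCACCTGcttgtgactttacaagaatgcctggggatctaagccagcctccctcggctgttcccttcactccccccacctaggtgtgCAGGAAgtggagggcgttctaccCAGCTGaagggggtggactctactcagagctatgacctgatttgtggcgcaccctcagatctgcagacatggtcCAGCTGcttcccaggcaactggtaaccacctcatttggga

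The window of start site 1 was covered over all 300 bases by a peak of DP 1, of DP 2 and of DN 1, and by none of DN 2. The window of start site 3 was covered in full by a peak of DP 1 and of DP 2, and by none in either DN list. The window of start site 2 was covered by DP 1 alone. It ends at 51832897, and the DP 2 peak over start site 1 began just past it, at 51832901, on a calling grid of 50 bp. The other 2 windows, 21.106 and 21.236 kb inside the gene, had no peak in DP 1, DN 1 or DN 2, and 84 bases of the first of them were covered by DP 2. Among 21262 promoter windows of protein-coding genes, a peak overlapped 43.0% and 44.9% in DP 1 and DP 2 and 32.5% and 22.6% in DN 1 and DN 2. DN 2 thus held the fewest promoters over the genome as well.

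In letters, start site 2 was the CpG-rich window, with 76.7% G or C and 45 CpG pairs. Start sites 1 and 3 had 59.0% and 56.0% G or C and 8 and 3 CpG pairs, against medians of 52.7% and 7 over 32851 promoter windows. The motifs searched on both strands were, for GATA factors, AGATAA and also TGATAA; for RUNX factors, TGTGGT; for E proteins, the E-boxes CAGCTG and CAGGTG, whose reverse complement is CACCTG; for ETS factors, CAGGAA; for TCF and LEF factors, CTTTGA; and for AP-1, TGACTCA. No match overlapped another in the windows shown. Start site 3 held CAGCTG at bases 187 to 192 and at bases 261 to 266, CACCTG at bases 79 to 84 and CAGGAA at bases 164 to 169. Start site 1 held CACCTG at bases 252 to 257, and start site 2 held no match. CAGCTG was present in 16.3% of all windows, CAGGTG in 20.2% and CAGGAA in 30.6%. The motifs AGATAA (11.2% of all windows), TGATAA (9.05%), TGTGGT (16.8%), CTTTGA (16.0%) and TGACTCA (5.20%) were in none of the 5 Satb1 windows. These matches are a description of letters and show no binding.

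Over the whole domain the DP lists held more peaks than the DN lists. The domain held 41 peaks in DP 1 and 35 in DP 2, against 13 in DN 1 and 1 in DN 2. The group means were 38.0 ± 4.24 in DP and 7.0 ± 8.49 in DN (SD, n = 2 each), and the lists of the groups did not overlap. Every DP list exceeded every DN list in the domains of 53.4% of the 21883 protein-coding genes, so this order alone is common. Some peaks of a list overlap each other. With these counted once, the lists held 32 and 33 separate sites in DP and 10 and 1 in DN. Per 10000 peaks of its list, the domain held 10.3 peaks in DP 1 and 4.97 in DP 2, against 3.35 in DN 1 and 0.302 in DN 2. The order was kept on this scale, though the DP lists came to differ more from each other than DP 2 did from DN 1.

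**Figure D1:**
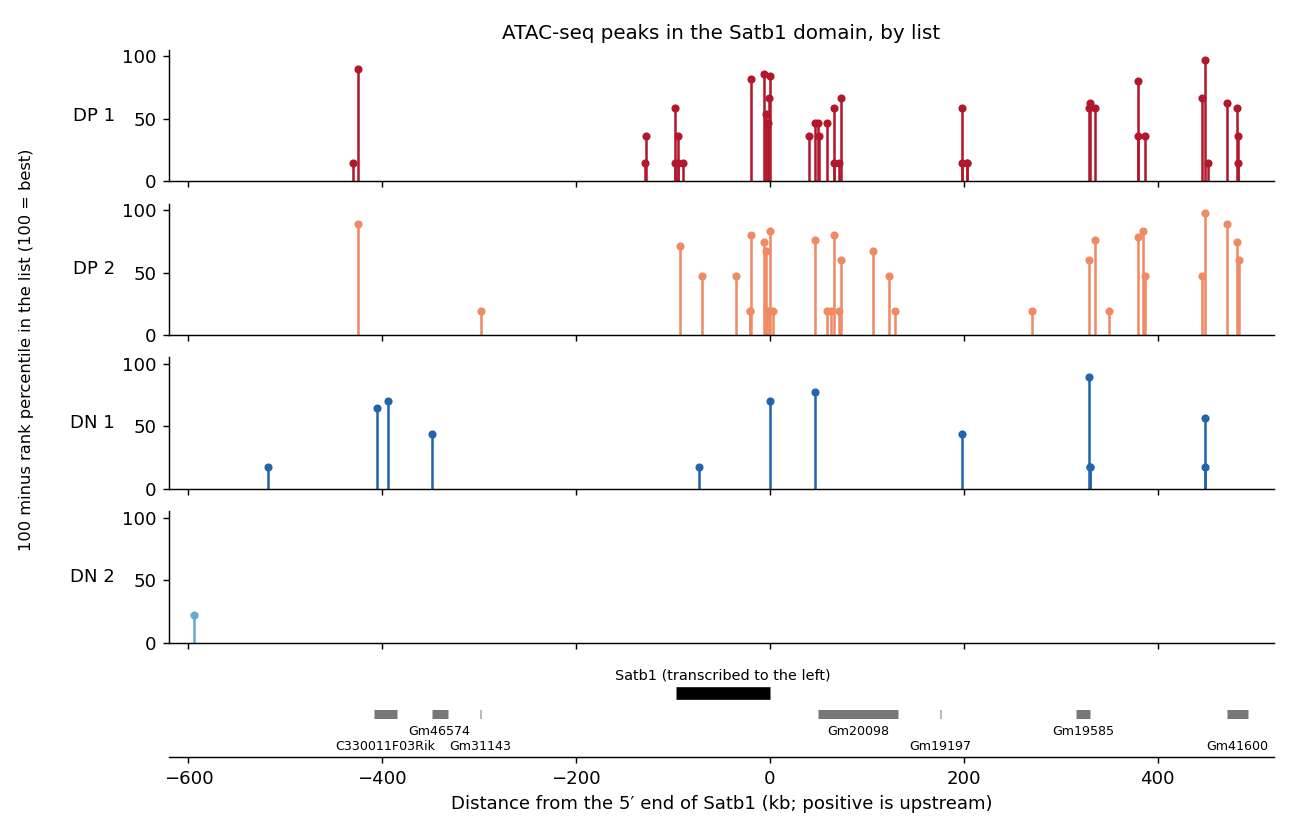
Each vertical line is a peak of the Satb1 domain, drawn at its distance from the 5′ end of Satb1 in kb, in 1 panel per list. Its height is 100 minus its rank percentile by p-value in that list, so that tall lines are well ranked. The bottom panel shows Satb1 in black and lncRNA genes and pseudogenes in grey. The 41 and 35 peaks of DP 1 and DP 2 gather at the 5′ end of the gene and in the upstream part, while DN 1 holds 13 scattered peaks and DN 2 holds 1.

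When the lists were merged, 14 of the 53 regions were held by both DP lists and neither DN list (DP-only), which is 26.4%, against 7.44% of all regions. No region was DN-only (2.51% of all regions) and none was shared by all 4 lists (7.39%). Of the others, 4 regions were held by both DP lists and DN 1 (7.55%, against 4.88% of all regions), and 1 by DP 1 and DN 1. A further 13 came from DP 1 alone (24.5%, against 10.3% of all regions) and 15 from DP 2 alone (28.3%, against 33.6%). DN 1 alone held 5 (9.43%, against 13.6%) and DN 2 alone held 1 (1.89%, against 14.4%). Regions of DP 1 alone thus also made up a larger share here than over the genome. DN 1 and DN 2 had no region in common here, while over the genome 35.2% of DN 1 regions were also in DN 2. With 1 region of DN 2 in the domain, at most 1 could have been common, so this contrast says little about their agreement. The counts depend on single lists. Without DP 1 the DP-only number was 29, and without DP 2 it was 27. Without DN 2, the list with 1 peak here, 4 regions counted as shared and 5 as DN-only, and without DN 1 there was 1 DN-only region.

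The DP lists agreed on part of their sites. Of the 32 regions of DP 1 in the domain, 18 (56.2%) were also in DP 2, against 63.7% over the genome. Of the 33 regions of DP 2, the same 18 (54.5%) were also in DP 1, against 35.6% over the genome, where the DP 2 list is much the longer. The 18 common regions were 450 to 1200 bp wide with a median of 725 bp. Their outer low-coordinate edges differed between DP 1 and DP 2 by a median of 75 bp and at most 400 bp, on a calling grid of 50 bp.

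The 18 regions common to the DP lists were unevenly placed. Of them, 13 lay upstream of Satb1, 4 inside the gene and 1 beyond its 3′ end. Peaks of single lists leaned the same way: 26 and 23 peaks of DP 1 and DP 2 lay upstream, 9 and 10 in the gene and 6 and 2 downstream. DN 1 had 8 peaks upstream, 1 in the gene and 4 downstream, and the only peak of DN 2 lay downstream. The midpoints of neighbouring common regions were 2400 to 405225 bp apart, with a median of 11475 bp. Joined where gaps were at most 12500 bp, the 18 regions formed 9 stretches. A peak over the 5′ end is placed by its midpoint.

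**Figure D2:**
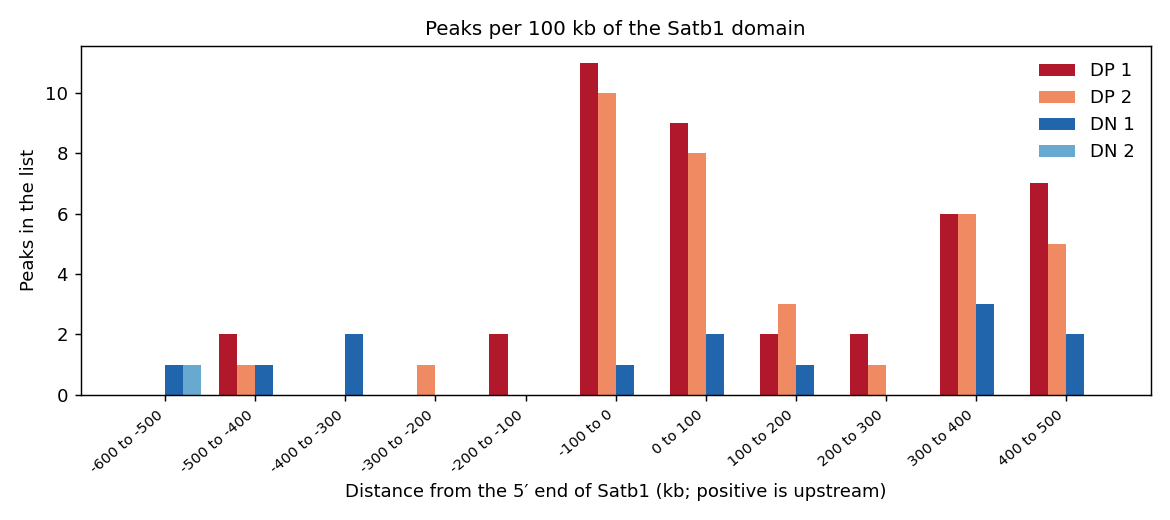
Bars give the number of peaks of each list per 100 kb of distance from the 5′ end of Satb1, which is at 0. The highest bars are those of DP 1 (11) and DP 2 (10) in the 100 kb that hold the gene, followed by the first 100 kb upstream (9 and 8). Fewer follow from 100 to 300 kb upstream, and more again from 300 to 500 kb (13 and 11 in total).

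The first group of sites lay at the 5′ end of the gene itself. The region over the 5′ end (51832501 to 51833700) was held by DP 1, DP 2 and DN 1. A peak's rank percentile is its place by p-value in its own list, with 0 the best and ties averaged. At the 5′ end the best peak stood at 16.1 in DP 1 and 16.9 in DP 2, against 29.8 in DN 1, and the peak was 800 bp wide in each DP list against 550 bp in DN 1. Inside the gene, 3 regions were DP-only, at 3.66, 6.61 and 19.6 kb from the 5′ end. The one at 6.61 kb (51826351 to 51827000) covered the window of start site 3 shown above, with rank percentiles of 14.5 in DP 1 and 25.8 in DP 2. The one at 19.6 kb (51813351 to 51814100) ranked at 17.8 and 19.9. The remaining 77.2 kb of the gene, toward its 3′ end, had no region common to both DP lists. It held 2 regions of DP 1 alone, 4 of DP 2 alone and 1 of DN 1 alone.

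**Figure D3:**
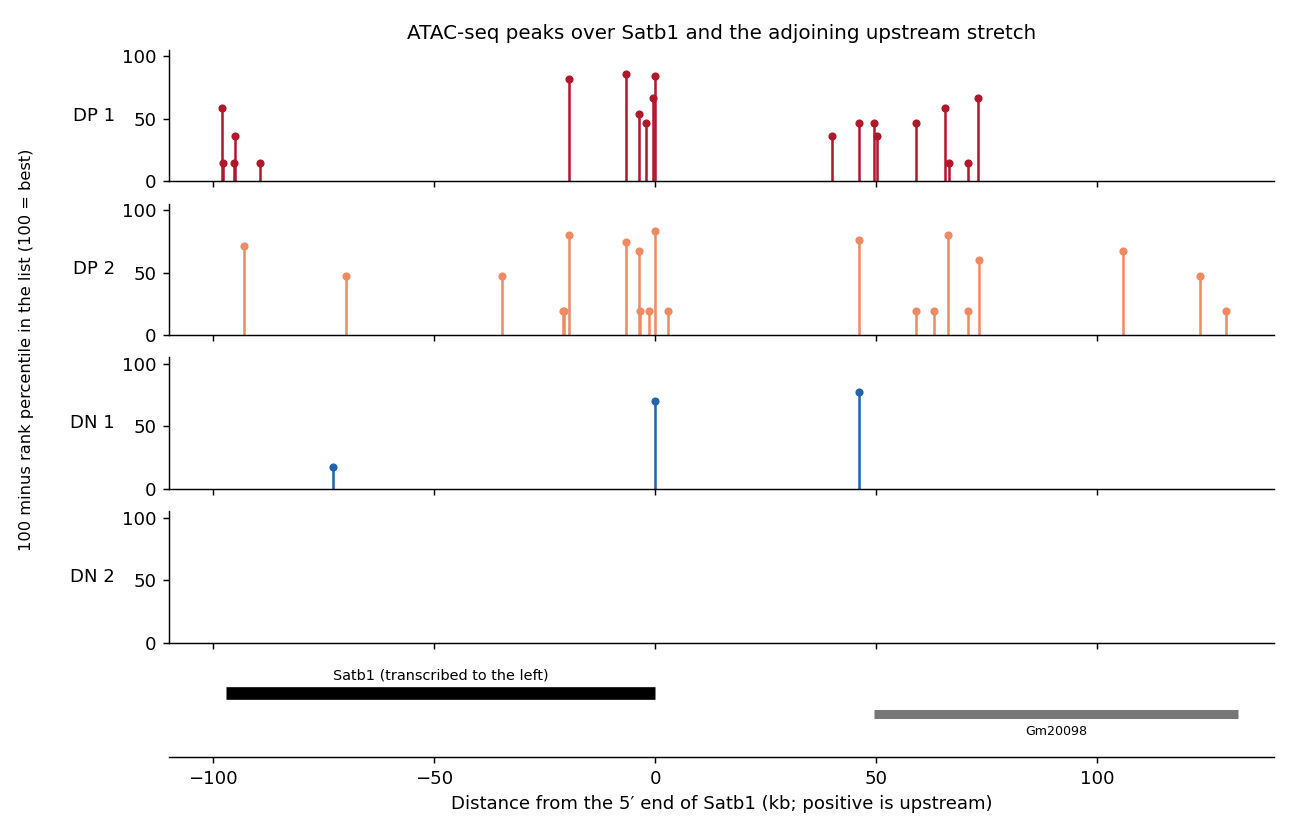
The same display for the gene and the stretch that adjoins it upstream, over distances of -110 to 140 kb from the 5′ end. Both DP lists crowd into the 20 kb of the gene next to its 5′ end. They also crowd into the stretch 46 to 74 kb upstream, in and beside the lncRNA gene Gm20098. In this window DN 1 has 3 peaks and DN 2 has none.

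The second group lay 46.1 to 73.2 kb upstream, at and inside Gm20098, an lncRNA gene whose function is not annotated here. Its lowest member, at 46.1 kb (51879051 to 51879650), lay outside Gm20098 and was held by DP 1, DP 2 and DN 1. Its rank percentiles were 53.1 in DP 1, 24.0 in DP 2 and 22.5 in DN 1, so DN 1 ranked it as well as a DP list did. The next 4 common regions, at 59.0, 66.3, 70.8 and 73.2 kb, were all DP-only and lay in 14.8 kb, the stretch with the most common regions. They were of middling or low rank: the mean best percentiles over the DP lists were 66.9, 52.7, 83.1 and 36.9. Farther into Gm20098, DP 2 alone had 3 regions, from 106 to 129 kb upstream.

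Between the Gm20098 stretch and the far upstream sites, the common regions left a gap of 256.5 kb. It held 1 region of DP 1 alone, 4 of DP 2 alone and, at 198 kb upstream, a region of DP 1 and DN 1 (52030901 to 52031450) that DP 2 did not hold. The gap on the gene's side was larger. From the region at 19.6 kb inside Satb1 to the only common region on the 3′ side, 425 kb from the 5′ end, there were 405.2 kb. That 3′ region (51408101 to 51408900) was DP-only and among the best ranked of the domain, at 9.93 in DP 1 and 11.3 in DP 2. The DN 1 peaks of the 3′ side fell elsewhere, at 348, 394, 405 and 518 kb from the 5′ end, and none was shared with another list.

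The third group, 330 to 483 kb upstream, held 8 of the 18 common regions and the best ranked site of the domain. The groups are named by position for description and follow no distance rule. Gaps of 44.25, 58.08 and 22.0 kb lay within the third group, while 46.25 kb parted the first group from the second. This site (52281851 to 52282800, 449 kb upstream) had p = 1e-12 in both DP lists, the smallest value the lists contain, which is the authors' own per-peak value. DP 1 and DP 2 gave that value to 2533 and 3124 of their peaks, so the site shared the top place with 6.38% and 4.44% of each list. The peak was 900 bp wide in DP 1 and 950 bp in DP 2. DN 1 also held the site, but as overlapping peaks of 350 and 400 bp, whose best rank percentile was 43.3, and DN 2 did not hold it. It was thus not DP-only by presence, while rank and width differed between DP 1 and DP 2 on one side and DN 1 on the other.

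Its neighbours were mostly DP-only. A region at 445 kb (52278401 to 52279000) had rank percentiles of 33.8 and 53.0 in DP 1 and DP 2. The pair at 380 kb (52212501 to 52213400) and 387 kb (52220401 to 52220850) ranked at 19.6 and 21.9, and at 64.0 and 53.0. Between them DP 2 alone held a region at 384 kb with a rank percentile of 16.9. The region at 335 kb (52168351 to 52169050) ranked at 41.0 and 24.0. The last pair lay at 471 kb (52303951 to 52304700), across an end of the lncRNA gene Gm41600, and at 483 kb, inside it. The first of them stood at 37.1 in DP 1 and 11.3 in DP 2.

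The site at 330 kb (52162501 to 52163450) went the other way in rank. It lay inside the lncRNA gene Gm19585 (52149289 to 52163486), next to its high-coordinate end, and was held by DP 1, DP 2 and DN 1. Its best rank percentile was 37.1 in DP 1 and 40.1 in DP 2, against 10.3 in DN 1, where 3 overlapping peaks covered it. Ranks from lists of different length show no change in openness, and DN 2 held no peak there.

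**Figure D4:**
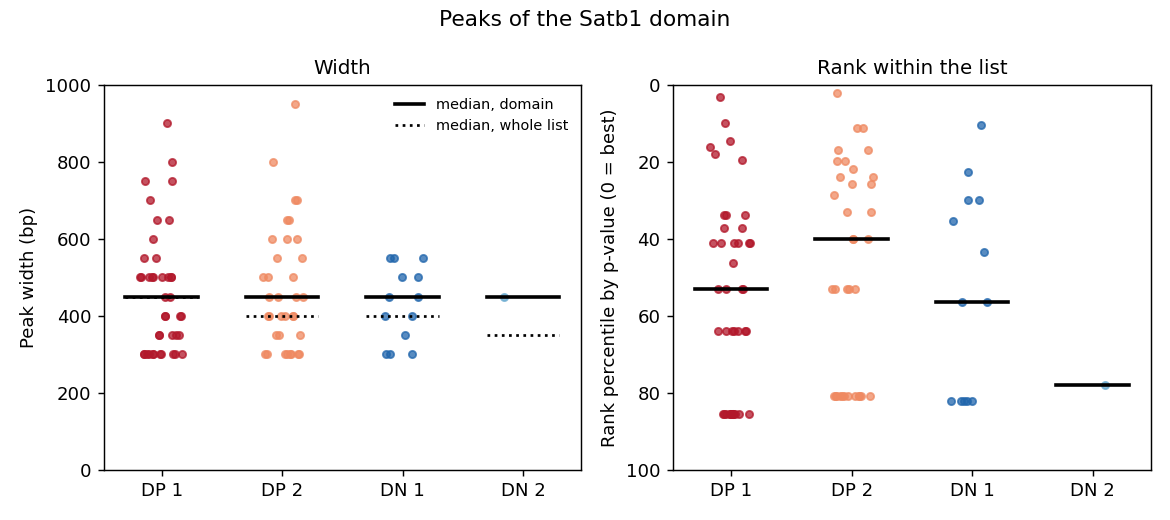
Each point is a peak of the Satb1 domain. The left panel gives its width in bp, with the median of the domain as a solid line and of the whole list as a dotted line, and the right panel its rank percentile by p-value, with 0 (best) at the top. Domain medians of width were 450 bp in all 4 lists, and rank medians were 53.1 and 40.1 in DP 1 and DP 2 against 56.3 in DN 1, with 1 peak at 77.9 in DN 2.

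By median width and rank the domain's DP peaks were middling members of their lists. Their median width was 450 bp in every list, against 450 and 400 bp over the whole DP 1 and DP 2 lists and 400 and 350 bp over DN 1 and DN 2. Peaks wider than 500 bp numbered 10 of 41 and 11 of 35 in DP and 3 of 13 and 0 of 1 in DN. Over the whole lists such peaks made up 41.1% and 28.6% in DP 1 and DP 2 and 31.2% and 20.7% in DN 1 and DN 2. In DP 1 the domain thus had a smaller share of wide peaks than the list. Only 2 peaks of DP 1 and 1 of DP 2 were in the best 10% of their list, and none of DN. In each DP list 12 peaks carried the largest p-value of the list, as did 29.1% and 38.5% of all peaks of DP 1 and DP 2. Sites that both DP lists held were the wider and better ranked ones: in DP 1 the median width was 500 bp for 23 such peaks and 350 bp for the other 18, and in DP 2 550 bp for 19 and 375 bp for 16. The same held over the whole lists, with 550 and 350 bp in DP 1 and 600 and 350 bp in DP 2. Their median rank percentiles in the domain were 41.0 against 74.7 for the others in DP 1, and 25.8 against 80.8 in DP 2.

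DP peaks of the domain lay close together. The median distance between midpoints of neighbouring peaks was 4025 bp in DP 1 and 8625 bp in DP 2, against 59500 bp in DN 1, and DN 2 had no neighbouring pair. Over the whole lists these medians were 22000 and 16425 bp in DP and 32412.5 and 38575 bp in DN. DP spacing in the domain was thus shorter than the list's own median, while that of DN 1 was longer. DP 1 peaks formed 11 stretches with gaps of at most 12500 bp, of which 8 had 3 or more peaks, and DP 2 peaks formed 17, of which 5 did. DN 1 had 9 stretches, 1 of them with 3 peaks, which overlap at a single site. Overlapping peaks were not joined for these spacings and stretches. Joining them would remove 9 peaks from DP 1, 2 from DP 2 and 3 from DN 1. Some of the 8 stretches of DP 1 thus hold fewer than 3 separate sites.

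The bounds of 500 kb are those of the selection rule, and DP sites went on beyond the upstream one. The first peak outside it lay 15.4 kb away in DP 1 and 15.5 kb in DP 2 (a DP-only region, 52348401 to 52349000), against 115.5 and 115.6 kb in DN 1 and DN 2. The last peak inside lay 17.2 and 16.1 kb from the bound in the DP lists and 50.8 kb in DN 1. Outside coding genes the next stretch upstream ran as far as Kcnh8, which starts at 52602709. It held 12 regions, of which 3 were DP-only, 2 were shared by all 4 lists and 7 were in other sets of lists. Over all regions, 7.44% were DP-only and 7.39% were shared by all 4 lists. Those 7 included regions held by DN 1, at 135.2, 236.5, 258.6 and 267.9 kb beyond the bound. DN peaks were thus also present in this stretch. The nearer shared one (52448451 to 52449100) was the first shared region upstream of Satb1. Kcnh8 itself went the other way, with 0 and 1 peaks in the DP lists against 5 in each DN list. On the other side, the first peak outside the domain lay in Tbc1d5, 56.6 to 56.9 kb beyond the bound, in each of the 4 lists. DN 2 therefore held peaks on both sides of the domain in which it had 1.

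The same rule was then applied around every protein-coding gene, to place Satb1 among them. Over 21883 genes the median number of domain peaks was 10 in DP 1, 14 in DP 2, 8 in DN 1 and 5 in DN 2. More peaks than the 41 of Satb1 in DP 1 were found for 49 genes (0.224%), and more than the 35 in DP 2 for 934 genes (4.27%). More than the 13 in DN 1 were found for 18.9% of genes, and more than the 1 in DN 2 for 81.9%. The mean DP minus mean DN number was 31 for Satb1, against a median of 5, and 121 genes (0.553%) exceeded it. By DP-only regions, Satb1 had 14 against a median of 2, and 66 genes had more. Domains of neighbouring genes overlap and share peaks, so these genes are not independent. In the Satb1 domain, 1097104 bp were free of other coding genes, against a median of 536236 bp. Per Mb of that free sequence the difference was 28.3 for Satb1, and 3223 genes (14.7%) had a higher one.

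**Figure D5:**
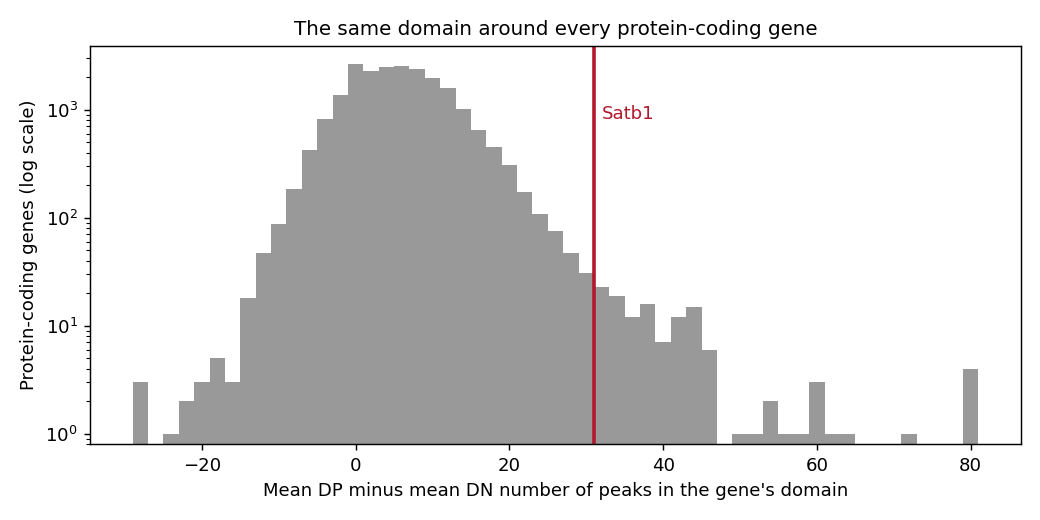
The histogram counts protein-coding genes (log scale) by the mean DP minus mean DN number of peaks in their domain, built by the same rule for each gene. The red line marks Satb1 at 31, and 121 of the 21883 genes lie to the right of it.

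In the genes with the largest differences, DP 2, the longest list, held most of the peaks. These were Cdh4, Dscam, Tcerg1l, Dock1 and Agap1, with differences of 71.0 to 81.0. Cdh4, a cadherin gene, had 54 and 189 peaks in DP 1 and DP 2 and 34 and 47 in DN 1 and DN 2, with 4 DP-only regions. Satb1 had 41 and 35 peaks in the DP lists, without such an excess in DP 2. Measured as the lowest DP minus the highest DN list, Satb1 had 22 and 38 genes (0.174%) had more. Without DP 2, 24 genes exceeded Satb1 in the difference of means, and without DP 1, 496 did. Without DN 2, 185 did.

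The genes most like Satb1 over the 4 lists, by the sum of absolute differences in peak number, were Lpp (9), Cox7a2l (13), Gm38664 (13), Rbm34 (13) and Wdr60 (13). Lpp, a gene of a focal adhesion protein, had 36 and 37 peaks in DP 1 and DP 2 and 12 and 2 in DN 1 and DN 2, with 18 DP-only and 2 shared regions. The domain of Wdr60 took in 20 V segments of the immunoglobulin heavy chain locus. With 4 lists, likeness of this kind is coarse.

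Loci tied to SATB1 or to T cell identity also mostly had more DP than DN peaks. The lists of genes were chosen with earlier results of these data known. Of 12 loci linked to SATB1 in T cells, 10 had more peaks in each DP list than in each DN list, against 53.4% of all genes. Their median difference was 15.0, and none of the 12 reached that of Satb1. Cd8a and Cd8b1 are neighbours, as are Rag1 and Rag2. The domains of each pair overlap and share peaks, so the 12 are not independent. Runx1, a T cell transcription factor, had 24 and 37 peaks in the DP lists and 10 and 1 in the DN lists. Cd8b1, for the CD8 beta chain, had 28 and 31 against 8 and 8, and 15 DP-only regions, 1 more than Satb1. The exceptions, named after their values were seen, were the recombinase genes Rag1 and Rag2, with 10 and 19 DP peaks against 11 and 12 in DN for Rag1, and 7 and 17 against 11 and 12 for Rag2.

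All 10 T cell factor genes had more peaks in each DP list than in each DN list, against 53.4% of all genes. Their median difference was 18.5. Lef1 had 32 and 43 peaks in DP against 20 and 8 in DN, and Tcf7, which encodes the related factor TCF1, had 24 and 26 against 5 and 1. Of 7 genes for chromatin loop factors (Ctcf, cohesin subunits and their loaders and releasers), 4 had more in each DP list. That share is near the 53.4% of all genes, and the median difference of the 7 genes, 5.0, was that of all genes. The largest differences among these were those of Ctcf, with 13 and 16 peaks in DP against 7 and 3 in DN, and of the cohesin subunit gene Smc3, with 17 and 17 against 13 and 5.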

How the data were processed

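Reads were aligned to mm10 per the submitters' processing notes, which name Bowtie2 and Picard without versions or roles. PeakDEck is known as peak caller from a name alone, and its settings, read filters and any shift of the insertion sites were not given in the sources used here. Every list is of 1 sample and gives a p-value per peak, as deposited by the authors; it served only to rank peaks within a list. Depth is unknown, so no counting interval was computed.

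Sample titles gave the groups. After 33 mitochondrial peaks were left out, peaks sharing at least 1 bp were merged into regions. Identical coordinates were found for 1.33 to 6.25% of peaks of the shorter of any 2 lists. Genes and promoter sequences came from RefSeq (GRCm38.p6, the mm10 assembly); the letters of distal regions are not analysed here.

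The gene, the gene lists and the naming rule were chosen with earlier results of these data known. The rule names the 5 genes most like Satb1, the 5 with the largest difference, the 2 to 4 largest differences in each gene list, and regions held by at least 2 lists. A few genes of the lists are not reported here. Alternatives varied list length, overlap, merging distance, flank, other genes' spans, the replicate block and the lists used. The interval functions were tested on simulated lists. Python 3.11.15, numpy 2.4.6, pandas 2.3.3 and matplotlib 3.10.9 were used.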

Additional observations from a re-analysis of the deposited data

How the results depend on the processing

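The direction of the Satb1 difference, more peaks in DP than in DN, was kept under each alternative run for it. The mean DP minus mean DN number of 31 became 15 in the top 50% of each list and 22.5 with equal list lengths. At equal length DP 1 and DP 2 held 41 and 18 peaks, against 13 and 1 in DN 1 and DN 2, so DP 2 came close to DN 1. Wherever lists were cut, ties in p-value were taken in file order, and DP 1 lost none of its 41 peaks at equal length. The difference was 18.5 with a flank of 100 kb, 22 with 250 kb, and 5.82 per 10000 peaks. Leaving out a list gave 25 to 37. With the replicate number as a block it was 31; the numbers are not known to pair the samples. DP-only regions, 14 in all, numbered 9 in the top 50% and 7 with a flank of 100 or 250 kb, and 14 to 29 with a list left out. DN-only regions were 0 to 5 and shared regions 0 to 4 with a list left out, and 2 were shared with a flank of 1 Mb. The DP spacing, as the mean of the 2 list medians, of 6325 bp became 3062.5 bp with a flank of 100 kb and 12150 bp with equal list lengths, where ties were taken in file order. The number of genes with a larger difference, 121, was 57 with a flank of 100 kb, 48 with equal list lengths, and 24 to 496 with a list left out. It was 38 by the lowest DP minus highest DN list and 3223 by the difference per Mb. These, the left-out lists for this number and counting overlapping peaks once were chosen after seeing the data. Why these values moved was not tested, beyond the smaller windows and shorter lists that hold fewer peaks by construction.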
